A study of Mus musculus with 9 samples.

Results

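The contractile apparatus of smooth muscle was followed through 10 genes, Myh11, Myl9, Mylk, Acta2, Actg2, Tagln, Cnn1, Smtn, Lmod1 and Des, in whole distal small intestine of mice. They were chosen by name: every probe set (the group of short probes that reads 1 transcript) that the platform annotation gives exactly 1 of these symbols was taken. This gave 16 probe sets for the 10 genes, out of 34945 probe sets with a single symbol for 18194 genes. All 10 genes had a probe set bright enough to be tested, 15 of the 16 in all. Each gene is represented below by its brightest tested probe set unless another is named.

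The arrays compared 3 groups of 3 samples, all from mice carrying the gut bacterium Bacteroides thetaiotaomicron for 10 days. The Rag1 group is labelled as tissue from Rag 1 animals, named for a gene without which mature B and T cells do not form. The BP group has that same source label and differs from it by name alone, and what BP stands for is not in the labels. Wild type samples are from B6 animals. Of 16 equal segments of the gut, numbers 10, 11, 12 and 14 went whole into each pool, so each sample holds mucosa and muscle wall together. The labels give no allele, age, sex or batch, and do not say whether each array is a separate mouse, so p-values measure only the spread between these samples, and the small number of arrays limits the precision.

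Smooth muscle contracts when calcium, bound to calmodulin, activates myosin light chain kinase (Mylk), which phosphorylates the regulatory light chain (Myl9) of smooth muscle myosin (Myh11) and lets it pull on actin filaments. In the gut the circular and longitudinal layers of the outer wall supply most of this machinery; their actins are the enteric gamma form (Actg2) and the alpha form (Acta2), and the alpha form is also made by blood vessel muscle and by myofibroblasts of the mucosa. Calponin (Cnn1), transgelin (Tagln) and smoothelin (Smtn) bind the actin filaments, leiomodin (Lmod1) helps to start them, and desmin (Des) forms the intermediate filaments that tie the cell's contractile units together. Many of these genes are driven by serum response factor with its partner myocardin, through a short DNA element called the CArG box.

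The stretches that hold CArG elements are shown for Myl9 and Acta2, since a CArG box in the promoter is the best known common control of this gene family. RefSeq promoters (GRCm38.p6) were matched for 7 of the 10 genes, Des, Acta2, Cnn1, Mylk, Myl9, Smtn and Lmod1, and the 250 bases before each start were searched. For Acta2 only the farthest 38 of these bases, and for Mylk 0, lie upstream of every RefSeq transcript of the gene. The matches given for Acta2 and Mylk therefore lie downstream of the start of another transcript of the same gene. A full CArG box was found in 1 of the 7, Myl9, against 1.47% of 32851 promoters of the same length. The form with 1 G or C in its A/T core was found in 2 of the 7, Acta2 and Myl9, against 7.24% of promoters. Capitals mark the CArG elements. The first sequence lies upstream of every RefSeq transcript of Myl9 and holds a full box at -161 to -152 from the annotated start and the changed form at -99 to -90. The other sequences show the Acta2 elements at -84 to -75 and at -34 to -25, each with 10 bases on either side.
Myl9, chr2:156775214-156775407, plus strand: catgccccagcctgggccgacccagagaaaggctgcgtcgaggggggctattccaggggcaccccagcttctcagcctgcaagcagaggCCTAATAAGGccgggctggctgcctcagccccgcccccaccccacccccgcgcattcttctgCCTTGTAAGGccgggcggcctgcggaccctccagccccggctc
Acta2, chr19:34255438-34255467, minus strand: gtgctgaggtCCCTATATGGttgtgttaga
Acta2, chr19:34255388-34255417, minus strand: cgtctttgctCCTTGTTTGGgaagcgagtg

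Other short motifs, searched on both strands, were spread over the same promoters. CATTCC, the core of the element bound by TEAD factors, stood in 4 of 7 (Acta2, Mylk, Smtn and Lmod1; 12.6% of all promoters), GGGCGG in 4 of 7 (Des, Myl9, Smtn and Lmod1; 32.7%) and TATAAA in 0 of 7 (12.4%). A match is a description of letters and not a measured binding site.

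The state of the RNA differed between arrays and bears on every value below. The beta-actin control of these arrays is read near both ends of the transcript, and its 3' to 5' ratio grows when the labelled RNA is shortened. Rag1 arrays had ratios of 1.53 to 1.77. BP replicates 1, 2 and 3 had 14.2, 2.43 and 20.2, and their wild type counterparts 3.25, 1.76 and 4.17. The same ratio of the Gapdh control was 1.22 to 1.45, then 8.66, 1.81 and 17.1, then 2.52, 1.25 and 2.85 in that order. BP replicates 1 and 3 therefore stood apart from the other 7 arrays by both controls, and wild type replicate 2 was the array outside the Rag1 group with ratios in or near the Rag1 range. BP replicate 2 was apart in another control, the spiked Dap transcript, at 1020 in deposited intensity against at most 19.1 elsewhere. Transcripts linked to sex moved with the groups as well: Xist of the inactive X chromosome read 6.69 to 22.6 in Rag1, 41.6, 518 and 1950 in BP and 1090 to 1510 in wild type samples, and Y-linked Eif2s3y 42.4 to 95, then 19.2, 2.26 and 3.06, then 1.37 to 7.21. The part that sex or the Dap signal plays in the members' values was not tested.

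All levels are given as normalized intensity, the deposited linear intensity after the 9 arrays were brought to a common distribution. Differences are on the log2(value + 16) scale with their standard error, from limma with Benjamini-Hochberg adjustment over all 27022 tested probe sets; 3 arrays entered each group. The members were well measured: the mean of the representative probe sets lay between the 77.3rd percentile of all probe sets (Lmod1) and the 99.2nd (Acta2). In whole tissue, fewer muscle cells and less RNA per muscle cell cannot be told apart.

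**Figure D1:**
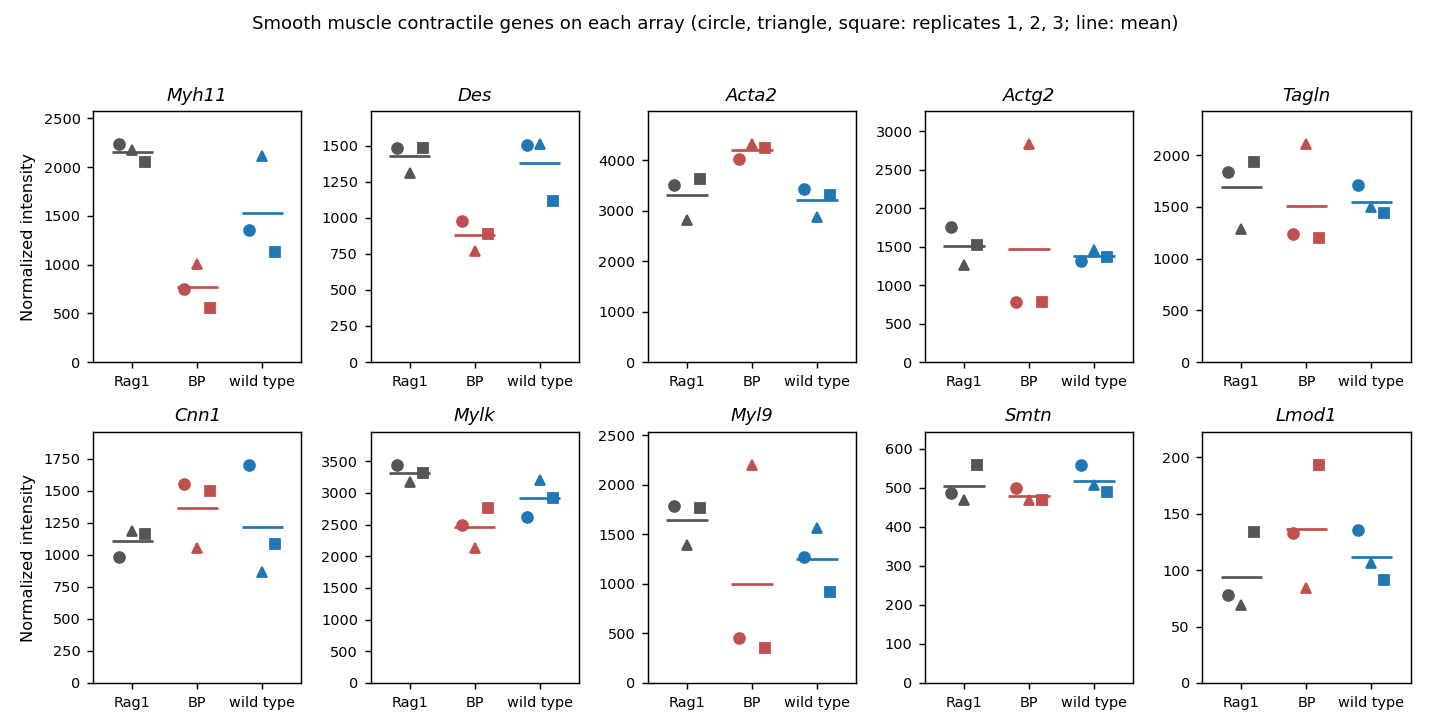
Normalized intensity (vertical axes, from 0) of the 10 genes on each array of the Rag1, BP and wild type groups; symbols mark the replicate and lines the group mean. Myh11 lies at 551 to 1002 on the BP arrays, below all Rag1 arrays, while Myl9 and Actg2 divide the BP group, with replicate 2 highest of all 9 arrays.

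Wild type was set against Rag1 tissue to see whether the contractile genes differ when lymphocytes are present. These groups also differed throughout in the sex-linked transcripts Xist and Eif2s3y, so lymphocytes and sex cannot be told apart here. None of the 10 genes passed in limma, in either direction; among all 13570 tested genes 0.317% were higher and 0.0737% lower. The count at an unadjusted p under 0.05 was 0 of 10 too, where 3.54% of all genes were higher and 2.26% lower. The member nearest to a difference was Myh11, at -0.53 ± 0.25 (adjusted p = 0.908). The median over the 10 genes was -0.08, beside 0.02 over all tested genes, and 7 of 10 values were negative, as were 46.9% of all genes. That median is 0.04 when arrays are centred on their medians in place of quantile normalization, so it has no stable direction. No representative probe set separated the wild type arrays from the Rag1 arrays without overlap, in a comparison where 10.5% of genes did so upwards and 8.43% downwards. The 95% intervals were narrowest for Acta2, -0.33 to 0.24, and Mylk, -0.49 to 0.11, and widest for Myl9, -1.55 to 0.72. Their width rests on a spread pooled over all 9 arrays, and the BP group varied most. The median standard deviation was 0.44 in BP, 0.21 in Rag1 and 0.23 in wild type samples. In a fit of the wild type and Rag1 arrays alone Myl9 was at -0.41 ± 0.18 and Myh11 at -0.53 ± 0.18. None of the 10 genes passed there, but the lowest unadjusted p of a member in limma was 0.0132. In that fit 0.980% of all genes were higher and 0.523% lower.

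The comparison of BP with Rag1 tissue set groups of the same source label side by side. These groups also differed in Xist and Eif2s3y, most on BP replicates 2 and 3. The BP condition and sex therefore cannot be told apart here. Myh11 (-1.51 ± 0.25, adjusted p = 0.0134) and Des (-0.69 ± 0.17, adjusted p = 0.0485) fell, and no member rose. Among all tested genes 2.17% were lower and 1.1% higher. At an unadjusted p under 0.05, Myh11, Des, Mylk and Myl9 were lower, as were 11.1% of all genes, and Acta2 was higher, as were 8.03%. The median over the 10 genes was -0.25, beside -0.02 over all genes, and 7 of 10 values were negative against 51.5% of all genes. Myh11, Des and Mylk lay lower on every BP array than on any Rag1 array, which was the case for 13.1% of genes, and Acta2 lay higher on every BP array, as did 10.0% of genes. With the actin control ratio as a covariate, chosen after seeing the data, 5 members passed, with Myh11, Des and Mylk lower and Actg2 and Myl9 higher; in that fit 11.4% of all genes were lower and 5.80% higher. With any 1 array left out the number passing ran from 0, without Rag1 replicate 1 or without Rag1 replicate 2, to 4, without BP replicate 2. It was 1 without each of the other arrays. Without Rag1 replicate 1 only 0.0223% of all genes were lower, and 0.0372% without Rag1 replicate 2, so few genes of any kind passed there. In the fits with 1 member passing, 0.453% (without Rag1 replicate 3) to 1.57% (without wild type replicate 2) were lower. Without BP replicate 2, 10.0% of all genes were lower and 10.3% higher. Fits below that leave out BP replicates 1 and 3 keep a single BP array, the one with the high Dap signal; its spread was assumed to be that of the other groups, and 15.1% of all genes were lower and 8.77% higher than in Rag1 tissue there.

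Between wild type and BP tissue none of the 10 genes passed in limma, where 0.545% of all genes were higher and 0.0368% lower in wild type samples. At an unadjusted p under 0.05, 2 members, Myh11 and Des, were higher and 1, Acta2, was lower, beside 9.05% and 4.90% of all genes. Myh11 was at 0.97 ± 0.25 (adjusted p = 0.115), Des at 0.63 ± 0.17 (adjusted p = 0.129) and Acta2 at -0.39 ± 0.13 (adjusted p = 0.199). These 3 genes were also the members whose arrays did not overlap between the groups; 11.8% of all genes lay wholly higher on the wild type arrays and 7.34% wholly lower. The median over the 10 genes was 0.15, beside 0.04 for all genes, and 3 of 10 values were negative against 45.9% of all genes. Without BP replicate 2 the number passing was 4, all higher on the wild type arrays, in a fit where 6.53% of all genes were higher and 4.79% lower. The 3 comparisons share their arrays in pairs, so their values are given side by side and not as repeats of each other.

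**Figure D2:**
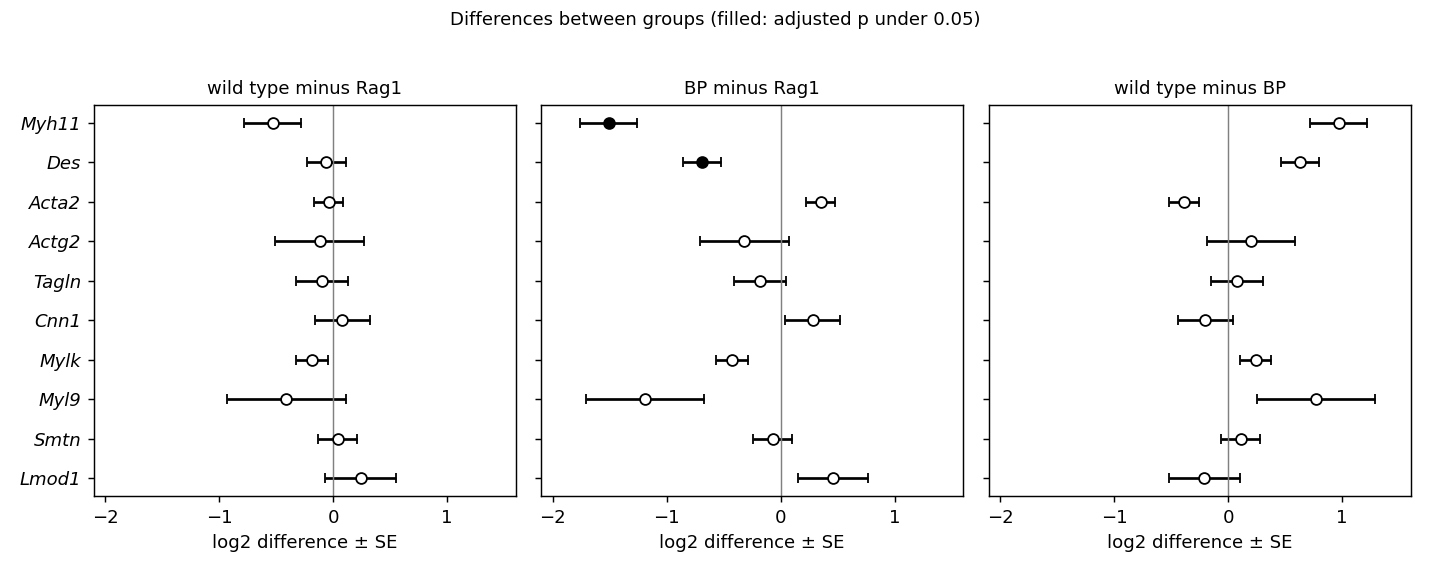
Difference between groups on the log2(value + 16) scale (horizontal axes; bars are standard errors from limma) for the 10 genes in the 3 comparisons. Filled points, at an adjusted p under 0.05, are Myh11 and Des between BP and Rag1 tissue, at -1.51 and -0.69.

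Myh11, the heavy chain of smooth muscle myosin and the most specific marker of mature smooth muscle, read 2235, 2170 and 2048 on Rag1 replicates 1, 2 and 3. It read 747, 1002 and 551 on the BP arrays, and 1355, 2109 and 1132 on the wild type arrays. Every BP array was below every other array, and wild type replicate 2 was the only wild type array at the Rag1 level. The fall between Rag1 and BP tissue was 2.85-fold, with a 95% interval of -2.05 to -0.96 on the log2 scale. The BP array with the lowest actin ratio, replicate 2, was at -1.09 from the Rag1 mean on the log2 scale, and replicates 1 and 3 at -1.5 and -1.93. Replicate 2 has a ratio above that of every Rag1 array too, and over the 9 arrays, which differ in group as well, Myh11 had a Pearson r of -0.929 with the log2 actin ratio. Without BP replicates 1 and 3 the difference was -1.08 ± 0.26 (adjusted p = 0.0115), and with the actin ratio as a covariate it was -0.78 ± 0.23 (adjusted p = 0.0355). Averaged over both Myh11 probe sets it was -0.63 (adjusted p = 0.167), which did not pass. The adjusted p rose to 0.0807 without Rag1 replicate 1 and to 0.0764 without Rag1 replicate 2, with the difference at -1.48 in the former. The other Myh11 probe set, dim at 11.1 to 51.7 over the 9 arrays, showed no such pattern and differed by 0.24 ± 0.34 (adjusted p = 0.760).

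Myl9, the regulatory light chain that the kinase phosphorylates, had the largest spread of the members. It read 1782, 1387 and 1762 in Rag1 samples, 454, 2198 and 349 on BP replicates 1, 2 and 3, and 1265, 1566 and 921 on the wild type arrays. BP replicate 2 was the highest of the 9 arrays and the other BP arrays were the lowest. The standard deviation within the BP group was 1.41 on the log2 scale, against 0.20 in Rag1 and 0.38 in wild type tissue, and the difference of BP from Rag1 was -1.19 ± 0.52 (adjusted p = 0.230). Without BP replicate 2 it was -2.0 (adjusted p = 7.83e-05), and without BP replicates 1 and 3 it was 0.42 ± 0.25 and did not pass (adjusted p = 0.258). With all arrays and the actin ratio as a covariate it was 0.79 ± 0.22 (adjusted p = 0.0294); over the 9 arrays Myl9 had an r of -0.954 with the log2 ratio. Between wild type and BP it was 0.77 ± 0.52 (adjusted p = 0.541) with all arrays and 1.58 (adjusted p = 0.000568) without BP replicate 2.

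Mylk, the kinase that starts contraction, was read by 3 probe sets that the annotation ties to the same deposited sequence, and they did not agree in size. The brightest read 3441, 3175 and 3320 on the Rag1 arrays, 2499, 2134 and 2766 on the BP arrays and 2618, 3206 and 2925 on the wild type arrays. All BP arrays lay below all Rag1 arrays, by a mean of 1.35-fold, a difference of -0.43 ± 0.14 that did not pass (adjusted p = 0.104). It passed without BP replicates 1 and 3, at -0.64 ± 0.15 (adjusted p = 0.0107), and with the actin ratio as a covariate, at -0.61 ± 0.17 (adjusted p = 0.0309).

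The middle probe set of Mylk read 1266, 1699 and 1614 on the Rag1 arrays, 1082, 1285 and 843 on the BP arrays and 1353, 1836 and 1294 on the wild type arrays. Here BP replicate 2 overlapped the lowest Rag1 array, and the difference was -0.52 ± 0.20 (adjusted p = 0.184). The dimmest of the 3 read 892, 601 and 586 on the Rag1 arrays, 102, 58.7 and 82.1 on the BP arrays and 257, 785 and 175 on the wild type arrays. On this probe set all BP arrays were far below all others, 7.32-fold below Rag1 (-2.87 ± 0.44, adjusted p = 0.0105), and wild type replicates 1 and 3 lay between, while wild type replicate 2 lay within the Rag1 range. BP replicate 2 was the lowest array of all there, with an actin ratio of 2.43, below both BP arrays of a higher ratio. Where in the transcript each probe set lies was not used here, and the part that RNA length plays in their disagreement was not tested.

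**Figure D3:**
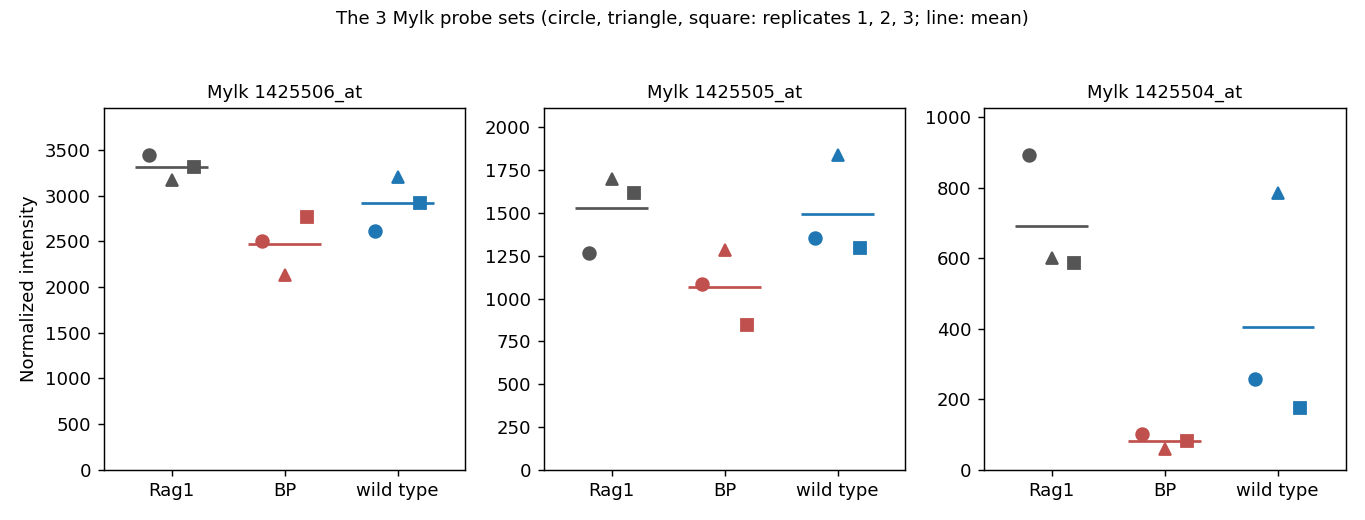
Normalized intensity (vertical axes, from 0) of the 3 Mylk probe sets on each array; symbols mark the replicate and lines the group mean. The BP arrays fall to 58.7 to 102 on the dimmest of the 3 but stay at 2134 to 2766 on the brightest.

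Neither of the smooth muscle actins passed in any of the 3 comparisons. Acta2, the alpha actin shared by gut wall, vessels and myofibroblasts, was the brightest member, at 3502, 2820 and 3622 on the Rag1 arrays, 4035, 4320 and 4239 on the BP arrays and 3431, 2873 and 3313 on the wild type arrays. All BP arrays were above all other arrays, but the difference from Rag1, 0.35 ± 0.13, did not pass (adjusted p = 0.166). It was 0.20 with median centring. The identifier of this probe set ends in _s_at, the platform's mark for probes that can match related transcripts, so reads of other actins may be included. The remaining Acta2 probe sets were dim, at 14.3 to 67.7, and differed by -0.22 and 0.05 between BP and Rag1.

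Actg2, the enteric gamma actin that is typical of visceral muscle, read 1756, 1265 and 1515 in Rag1 samples, 779, 2832 and 780 on BP replicates 1, 2 and 3, and 1316, 1462 and 1363 on the wild type arrays. The BP group again split around the other 2 groups, with replicate 2 the highest array and replicates 1 and 3 the lowest. With all arrays the difference of BP from Rag1 was -0.32 ± 0.39 (adjusted p = 0.726). It was -0.93 (adjusted p = 0.000696) without BP replicate 2 and 0.91 ± 0.19 (adjusted p = 0.00483) without BP replicates 1 and 3, so these data give no direction for Actg2 in BP tissue. Against wild type the sign turned in the same way: the wild type minus BP difference was -1.03 ± 0.19 (adjusted p = 0.0026) without BP replicates 1 and 3, which sets 1 BP array against the wild type arrays with a spread taken from the other groups, and 0.81 (adjusted p = 0.00345) without BP replicate 2. In wild type tissue the gene kept close to the Rag1 level, at -0.12 ± 0.39 (adjusted p = 0.999).

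Of the actin-binding members none passed in any of the 3 comparisons. Tagln, an abundant early marker of the smooth muscle lineage, read 1842, 1287 and 1935 on the Rag1 arrays, 1235, 2107 and 1197 on the BP arrays and 1713, 1498 and 1442 on the wild type arrays. It had the same shape as Actg2, with BP replicate 2 above all other arrays and BP replicates 1 and 3 below them, and a difference from Rag1 of -0.18 ± 0.23 (adjusted p = 0.728). Cnn1, the calponin that restrains myosin's action on actin, read 984, 1184 and 1161 on the Rag1 arrays, 1556, 1050 and 1498 on the BP arrays and 1701, 867 and 1083 on the wild type arrays. Here the order was turned around: BP replicates 1 and 3 were above every Rag1 array and BP replicate 2 was among them, and the difference was 0.28 ± 0.24 (adjusted p = 0.580).

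Smtn, smoothelin of contractile cells, was the steadiest member, at 469 to 558 in Rag1, 468 to 499 in BP and 489 to 559 in wild type samples. The 3 groups overlapped, and the differences were -0.07 ± 0.17 for BP and 0.04 ± 0.17 for wild type against Rag1 (adjusted p = 0.869 and 0.999). Lmod1, the leiomodin that nucleates actin filaments, was the dimmest representative, at 78.3, 69.2 and 134 on the Rag1 arrays, 133, 84.5 and 193 on the BP arrays and 136, 106 and 91.7 on the wild type arrays. Its groups overlapped too, and the difference of BP from Rag1 was 0.46 ± 0.31 (adjusted p = 0.465).

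Des, the intermediate filament protein of muscle, read 1486, 1310 and 1487 on the Rag1 arrays, 982, 768 and 891 on the BP arrays and 1508, 1512 and 1119 on the wild type arrays. All BP arrays were below all others, and BP replicate 2, the BP array with the lowest actin ratio, was the lowest of the 9. The fall from Rag1 to BP was 1.62-fold (95% interval -1.07 to -0.32 on the log2 scale), and wild type differed from Rag1 by -0.06 ± 0.17 (adjusted p = 0.999). The call of the fall was close to the threshold: its adjusted p was 0.0509 on the values as deposited, 0.111 in a fit of the BP and Rag1 arrays alone, and 0.19, 0.127 and 0.145 without Rag1 replicates 1, 2 and 3. It was 0.0628 and 0.104 without BP replicates 1 and 3, and 0.0824, 0.0642 and 0.0629 without wild type replicates 1, 2 and 3. Without BP replicate 2 the fall did pass, at -0.60 (adjusted p = 0.0119). With the actin ratio as a covariate the difference was -0.79 ± 0.23 (adjusted p = 0.0316). Without BP replicates 1 and 3 together the difference was -0.88 ± 0.20 (adjusted p = 0.00797). The other Des probe set was too dim to be tested, at 2.13 to 51.6.

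The members did not move as a block across the arrays. Of the 45 pairs of members, 24 had a positive and 21 a negative Pearson correlation of their normalized log2 values over the 9 arrays, which share normalization and the control ratios above. The closest pairs were Actg2 with Myl9 (r = 0.902), Actg2 with Tagln (r = 0.875), Tagln with Myl9 (r = 0.824) and Myh11 with Des (r = 0.818). The most opposed were Myh11 with Acta2 (r = -0.761) and Des with Acta2 (r = -0.740). The values thus held 3 patterns on the BP arrays. Myh11, Des and the brightest Mylk probe set were below the Rag1 range on all 3 arrays. Myl9, Actg2 and Tagln were below it on replicates 1 and 3 and above it on replicate 2. Acta2 was above it on all 3, and Cnn1 on replicates 1 and 3.

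These patterns lay against the control ratio as follows. On the 4 arrays with an actin ratio below 2, namely the Rag1 arrays and wild type replicate 2, Myl9 read 1387 to 1782 and Myh11 2048 to 2235. On the 3 arrays with a ratio of 2.43 to 4.17, Myl9 read 921 to 2198 and Myh11 1002 to 1355. On the 2 arrays above 10, Myl9 read 349 to 454 and Myh11 551 to 747, and Actg2 read 779 to 780 against at least 1265 elsewhere. Acta2, in contrast, read 4035 to 4239 on these 2 arrays and 2820 to 3622 on the 4 with low ratios. The ratio and the BP group cannot be told apart on BP replicates 1 and 3, and the part it plays in the differences of single members was not tested beyond the fits given above.

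**Figure D4:**
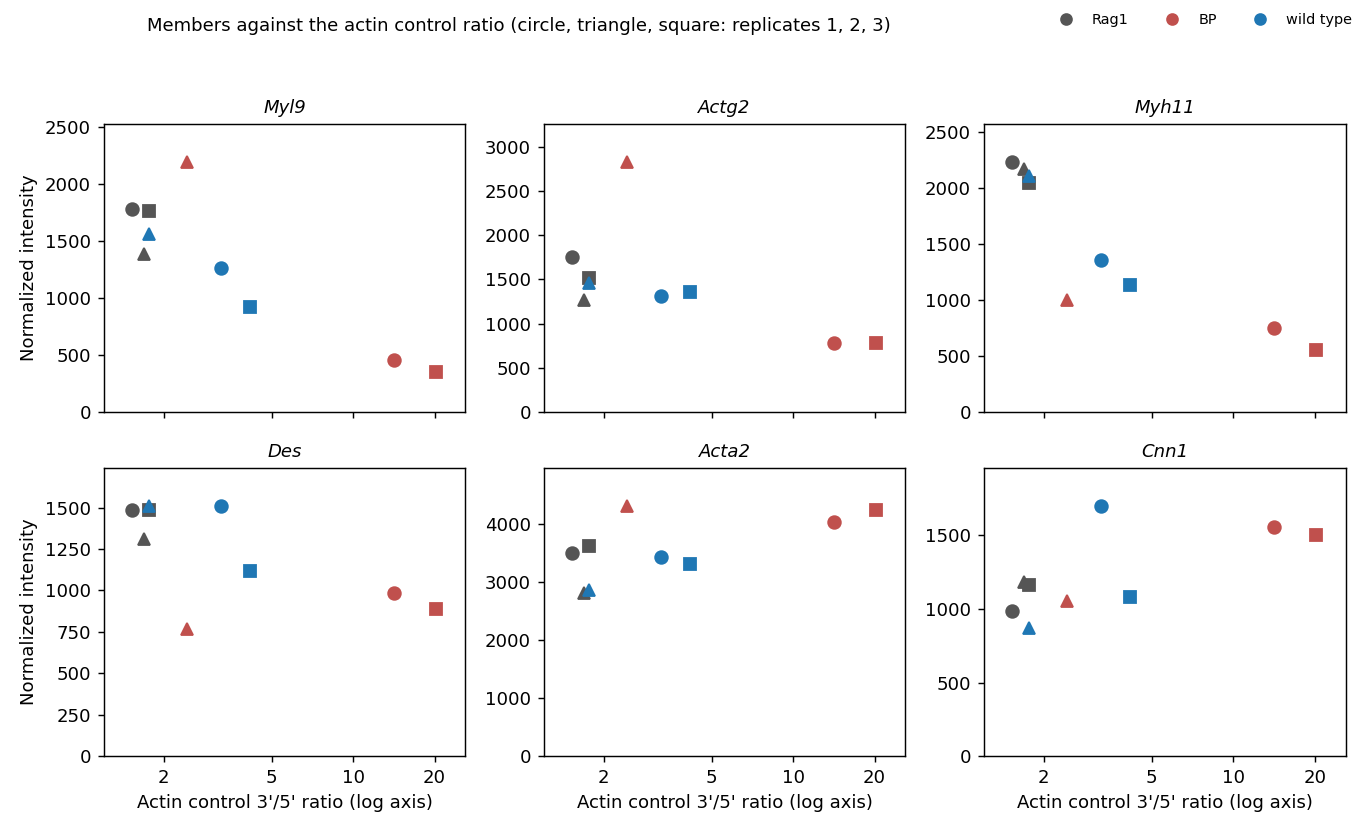
Normalized intensity (vertical axes, from 0) of 6 members against the 3' to 5' ratio of the beta-actin control (horizontal log axes), 1 point per array, coloured by group and shaped by replicate. Myl9 and Actg2 are lowest on the 2 arrays above a ratio of 10, Acta2 is 4035 to 4239 there, and Des is lowest on BP replicate 2 at a ratio of 2.43.

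As a reading of muscle content, the median of the 10 genes relative to their own Rag1 means was -0.17 to 0.09 in Rag1 samples, -0.41, -0.08 and -0.36 on BP replicates 1, 2 and 3, and 0.05, -0.04 and -0.16 on wild type replicates 1, 2 and 3. BP replicates 1 and 3 were the lowest arrays, and BP replicate 2 and all wild type arrays lay within the Rag1 range. The median hid large opposite values, since single members ran from -1.09 (Myh11) to 0.91 (Actg2) on BP replicate 2. On wild type replicate 2, the wild type array with the Rag1-like control ratio, they ran only from -0.35 (Cnn1) to 0.20 (Lmod1).

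Another median of the members was taken relative to their own means over all 9 arrays, not over the Rag1 arrays. The genes outside the set whose normalized values over the 9 arrays were most like it are given by their Pearson r, as a description with no test. They were Ccnk (0.950), Dcakd (0.949), Slfn4 (0.935), Dgcr2 (0.934), Ndufv2 (0.927), Xpnpep2 (0.923), Mmd2 (0.920), Psmb5 (0.917), Sgta (0.915) and Mydgf (0.913). None of these 10 stands in any of the 13 lists of muscle, regulator and cell type genes described next. Among the members themselves r with this other median ran from -0.418 (Acta2) to 0.853 (Des).

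Of 39 tested partners of the filaments and their anchors, 4 fell and 0 rose in BP against Rag1 tissue, with a median of -0.11. The 4 are 10.3% of the list, beside 2.17% of all tested genes that fell. The list was chosen with earlier results of these data known, so these shares are a description only. Tpm1, a tropomyosin that lies along the actin filament, fell from 3055 to 3152 in Rag1 samples to 1430, 1497 and 1265 in BP samples (-1.14 ± 0.13, adjusted p = 0.00441) and was 2403, 2752 and 2396 on the wild type arrays. Judged by each gene's brightest probe set, Tpm1 was the 1 gene of the list that also differed between wild type and BP (0.84 ± 0.13, adjusted p = 0.0147). Its other probe sets did not all follow: 1 fell by 2.59 (adjusted p = 0.038) and another was at 0.72 (adjusted p = 0.105).

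Csrp1, a LIM protein of the smooth muscle cytoskeleton, fell from 1181 to 1373 in Rag1 to 619 to 830 in BP tissue (-0.90 ± 0.17, adjusted p = 0.0201). Its other probe set read 252 on BP replicate 2, within the Rag1 range of 241 to 337, and did not pass (adjusted p = 0.118). Itgb1, the beta1 integrin that anchors cells to matrix, fell by 1.38 ± 0.32 (adjusted p = 0.0417), and its other 2 probe sets were at -1.83 and -2.32 (adjusted p = 0.0151 and 0.00982). Between wild type and BP these 2 were at 1.59 and 1.57 (adjusted p = 0.0487 and 0.0718). The brightest Itgb1 probe set was at 0.75 there (adjusted p = 0.311). Dmd, dystrophin, which links actin to the membrane, read 70.4 to 81.2 in Rag1 and 15.3 to 40.4 in BP samples (-1.15 ± 0.27, adjusted p = 0.0425), while its other probe set read 58.1 on BP replicate 2 and at most 3.29 on the other BP arrays (adjusted p = 0.318). In wild type against Rag1 tissue 0 of the 39 passed, with Tpm1 at -0.30 ± 0.13 and Dmd at -0.80 ± 0.27 (adjusted p = 0.847 and 0.610).

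Of 27 tested genes for calcium handling and for the kinases and phosphatases of contraction, 1 fell in BP tissue and none passed in the other comparisons in limma. This was Ppp1r12c, a targeting subunit of myosin phosphatase, at 214 to 281 in Rag1 and 93.9 to 128 in BP samples (-0.94 ± 0.21, adjusted p = 0.0368). Its other probe set was at 0.36 (adjusted p = 0.550). Pln, phospholamban, the brake on the calcium pump of the store, was at -1.25 ± 0.40 in wild type against Rag1 tissue and did not pass (adjusted p = 0.549). Of 23 regulators around serum response factor, myocardin and gut muscle patterning, 0 passed in any comparison; Bmp4 was at -0.94 ± 0.26 in BP against Rag1 tissue (adjusted p = 0.0726) and Gata6 at -1.27 ± 0.52 (adjusted p = 0.198).

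Cell types beside the muscle in the gut wall were read through their own lists. Summed over the list, enteric neuron genes (17 tested of 22) were at 1476 to 1514 in Rag1, 1535 to 1591 in BP and 1414 to 1675 in wild type samples, and glial genes (7 of 12) at 3479 to 4339, 2905 to 3410 and 2815 to 2948. The median over the neuron genes went the other way from their sum, at -0.07 to 0.10 on the Rag1 and -0.13 to -0.09 on the BP arrays. Of the 17, 11 were negative in BP against Rag1 tissue. In the neuron list 1 gene rose in BP tissue, Nos1, the neuronal nitric oxide synthase of inhibitory motor neurons, with 25.6 to 37.3 in Rag1 and 70.5 to 197 in BP samples (1.38 ± 0.34, adjusted p = 0.0462), and its other 3 probe sets did not pass. Genes listed for the interstitial cells of Cajal, the gut's pacemakers (6 of 8 tested), summed to 426 to 631, 490 to 593 and 460 to 525, with 0 passing in any comparison. The list includes Pdgfra, which also stands in the fibroblast list, and Cd34, which is not particular to the pacemakers. Cd34 was at -0.97 ± 0.26 in BP against Rag1 tissue (adjusted p = 0.0589).

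Fibroblast and matrix genes (21 of 22 tested) had medians of -0.15 for BP and -0.08 for wild type against Rag1, and pericyte genes (9 of 10) 0.21 and -0.03. Endothelial genes (13 of 13) were at -0.04 and -0.05 and mesothelial genes (6 of 8) at -0.08 and -0.15. In these 4 lists 0 genes passed in any comparison in limma; Pdgfrb, the growth factor receptor of pericytes, was at 0.65 ± 0.25 in BP against Rag1 tissue (adjusted p = 0.164) and Muc16 of the mesothelium at -0.99 ± 0.31 (adjusted p = 0.0964).

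Epithelial genes (22 of 22 tested), which mark the other main layer of these samples, also lay lower on the BP arrays. Their summed intensity was 78600 to 83120 in Rag1, 69410 to 72240 in BP and 77610 to 82620 in wild type samples, and their median in BP against Rag1 tissue was -0.28, next to -0.25 for the smooth muscle genes. Of the 22, 1 fell, the adhesion molecule Epcam, by 0.47 ± 0.11 (adjusted p = 0.0389), and its other probe set was at -0.14 (adjusted p = 0.860). The part that array quality plays in both lists was not tested.

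Skeletal and cardiac muscle genes, which should be near absent from gut wall, were mostly too dim: 7 of 14 were tested, and their summed intensity was 576 to 995 on the Rag1, 396 to 495 on the BP and 477 to 546 on the wild type arrays. Among them Ckm, muscle creatine kinase, was at 275 to 588 in Rag1, 94.1 to 166 in BP and 166 to 217 in wild type samples. In BP tissue it fell (-1.66 ± 0.29, adjusted p = 0.0168) and it was at -1.13 ± 0.29 in wild type tissue (adjusted p = 0.296). Its other probe set, dimmer, was at -0.40 in BP against Rag1 tissue and did not pass (adjusted p = 0.556). Fat and pancreas genes (6 of 13 tested) summed to 1137 to 1394, 845 to 1333 and 1143 to 1377, with 0 passing in any comparison in limma.

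**Figure D5:**
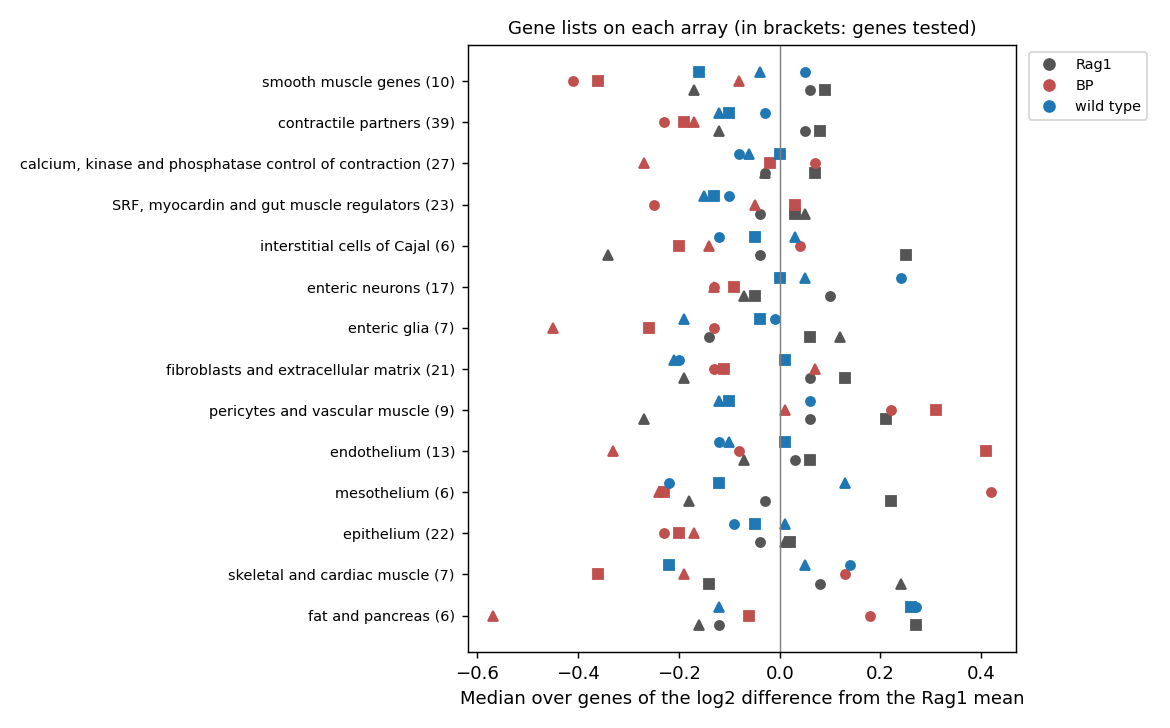
Median over the tested genes of each list of the log2 difference from the Rag1 mean (horizontal axis), 1 point per array, coloured by group and shaped by replicate. The smooth muscle genes are lowest on BP replicates 1 and 3, at -0.41 and -0.36, and the epithelial genes lie at -0.23 to -0.17 on the 3 BP arrays.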

How the data were processed

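Affymetrix arrays of 9 samples were used, 45101 probe sets each, of which 64 are controls. Per the labels, 20 µg of total RNA went into each biotinylated cRNA. The values the authors deposited are linear intensities, from 1 to 21694; the software and any scaling are not given in the sources used here. Each column carries its sample's name. Values were quantile-normalized as log2(value + 16), since the arrays' trimmed means differed (100.3 to 141), and the dimmest 40% of probe sets were left out (under 23.5 in intensity). The test was limma 3.58.1 (R 4.3.3): all 9 arrays in 1 fit, 6 residual degrees of freedom, an intensity trend, two-sided, a threshold of 0.05. The fit was also tested on simulated data, and Xist, Eif2s3y and the Dap control were chosen after seeing the data. The platform annotation gave the symbols; 932 probe sets with several and 9160 with none were not named.

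The members and the 13 gene lists were chosen with earlier results of these data known. Genes named are the members, up to 4 passing or the 2 of smallest p per list and comparison (not all are printed), and the 10 most like the members' median. Alternatives were other scalings, pseudocounts (1 and 64), filters, variance models, a replicate block, the mean over probe sets and leaving out arrays; the fits with the actin ratio as a covariate or without arrays of a high ratio were added after seeing the data.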

Additional observations from a re-analysis of the deposited data

How the results depend on the processing

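Between BP and Rag1 tissue 2 members passed. It was 1 with median centring, pseudocount 1 or 64, a replicate block, no filter or no intensity trend. A fit of these 2 groups alone and the mean over all probe sets of a gene also gave 1. In these fits 0.317% (the 2 groups alone) to 3.27% (median centring) of all genes were lower. With array weights 4 passed, Myh11, Des, Actg2 and Myl9, all lower, where 7.75% of all genes were lower and 6.41% higher. The actin ratio as a covariate gave 5, 3 lower and 2 higher, where 11.4% of all genes were lower and 5.80% higher. The fits without BP replicates 1 and 3, with or without wild type replicates 1 and 3, keep 1 BP array, so no count is given for them. The 1 left was Mylk under the mean over probe sets (-1.27, adjusted p = 0.0151), where Myh11 was at -0.63 (adjusted p = 0.167), and Myh11 under the other 7 (adjusted p 0.00816 to 0.0367). With 1 array left out the count ran from 0 to 4 and the median, -0.25 with all arrays, from -0.40 to -0.05. Between wild type and Rag1 the count was 0, or 1 with array weights (Myh11, -0.61, adjusted p = 0.0422), where 1.58% of all genes were lower and 2.42% higher. It was 0 without any single array, and the median then ran from -0.18 to -0.01. Between wild type and BP the count was 0, or 1 with median centring (Myh11, higher), where 1.76% of all genes were higher and 0.0739% lower. Array weights gave 2, all higher, where 2.30% of all genes were higher and 0.413% lower. With the actin covariate 1 was higher and 1 lower, where 9.53% of all genes were higher and 4.34% lower. The count ran from 0 to 4 with 1 array left out. No count is given without BP replicates 1 and 3, which leaves 1 BP array. Without wild type replicates 1 and 3 as well, 1 wild type array is set against 1 BP array. That fit takes its spread from the Rag1 arrays alone, so its values describe those 2 arrays. The median of 0.15 was 0.36 with median centring, -0.08 without these 4 arrays and 0.05 to 0.25 with 1 array left out. Actg2 in BP against Rag1 reversed to 1.07 with the actin covariate, 0.91 without BP replicates 1 and 3 and 0.92 without the 4 arrays, and Myl9 to 0.79 with the covariate. In wild type against BP, Actg2 reversed to -0.73, -1.03 and -0.95 in that order, and Myl9 to -0.83 without BP replicates 1 and 3. The cause was not tested. Median centring moved the median of all genes to -0.11 between BP and Rag1 and to 0.15 between wild type and BP. Same-numbered arrays of different groups had correlations of -0.185 to 0.234 in their deviations from the group means, and not every array correlated best with its own number, so the numbers were not taken as pairs; the replicate block moved the count between BP and Rag1 from 2 to 1 and left both others at 0. Lmod1 at about 100 in intensity and the dim probe sets of Myh11, Des and Acta2 limit what could be seen of those transcripts.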
